A study of Homo sapiens with 4 samples.

Results

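HSF1 and 9 heat shock protein genes were followed through the RNA and m6A data of lung adenocarcinoma cells depleted of the m6A reader YTHDF2. The set was chosen by gene name, a rule that itself uses no measured value, with earlier results of these data known. It holds the transcription factor HSF1, the HSP70 genes HSPA1A, HSPA1B, HSPA8 and HSPA5, the HSP90 genes HSP90AA1 and HSP90AB1, and the co-chaperone genes HSPH1, DNAJB1 and BAG3. All 10 were present among the 28283 genes of the expression table. Of the distinct m6A peaks, 30 of 31057 in the control list and 23 of 27344 in the knockdown list carried the name of a gene of the set.

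The cells were A549, a human lung adenocarcinoma line, with lentiviral vectors and selection with puromycin in both groups. One group carried the control vector (shNC, on the pLKO.1 backbone) and the other an shRNA against YTHDF2 (shY2-2), a stable depletion with a single hairpin. From each condition came 1 library of fragmented poly(A) RNA (input), used as RNA-seq, and 1 of the fragments that an m6A antibody bound (IP), so that 4 libraries were sequenced. With 1 library of each kind per condition, the values below describe these libraries, and no difference between conditions has a replicate check or a p-value. No heat shock was named in the labels.

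HSF1 is the main transcription factor of the heat shock response. In unstressed cells it is held inactive by chaperones, and when unfolded proteins draw the chaperones away it binds heat shock elements, repeats of inverted nGAAn units, in front of chaperone genes. HSP70 proteins bind and release unfolded clients in an ATP cycle that J proteins such as DNAJB1 start and that exchange factors such as HSPH1 and BAG3 reset, and HSP90 proteins take over clients such as kinases and hormone receptors. HSPA1A and HSPA1B are the strongly stress-inducible HSP70 genes, and m6A in the 5′ untranslated region (5′ UTR) of heat shock mRNAs has been studied as a route to translation under stress, with YTHDF2 as one of the readers involved.

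The expression values are FPKM, fragments scaled to exon length and library size, which are comparable between genes of different length. They carry no fragment count, so the depth of each library and the precision behind each value are unknown. Ratios are log2((FPKM shY2-2 + 1)/(FPKM shNC + 1)), a scale that understates the change of low genes, over the 12268 genes whose FPKM reached 1 in either input library. YTHDF2, the targeted gene, had an FPKM of 3.56 in shNC and 1.02 in shY2-2, a log2 ratio of -1.18. All 9 markers fixed for A549 and epithelium passed the filter. Their median log2 ratio was -0.46, from KRT19 (25.9 and 12.9 FPKM, -0.95) to NQO1 (381 and 515 FPKM, 0.44). Of 11 markers of leukocytes, endothelium and fibroblasts, 1 passed, COL1A1 (0.834 and 1.64 FPKM), and the 11 summed to 1.92 FPKM in shNC and 1.96 in shY2-2, with CD3E listed at 0 in shY2-2. In such bulk RNA, fewer cells with a transcript and less of it per cell cannot be told apart.

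The 2 inducible HSP70 genes had far lower RNA levels in the YTHDF2 knockdown, while HSF1 and most constitutive chaperones differed by less than 1.5-fold. HSPA1A and HSPA1B were each more than 3-fold lower in shY2-2, HSPH1 was 1.90-fold lower, and the other 7 genes had log2 ratios between -0.37 and 0.23. Of the 10 genes, 2 had a log2 ratio below -1 and 0 had a ratio above 1, where 2.14% and 0.986% of all 12268 genes passed these limits. The 2 genes below -1, HSPA1A and HSPA1B, share most of their sequence, so they are not separate observations. In sign, 8 of 10 ratios were below 0, against 49.7% of all genes. The median of the 10 ratios was -0.31, and that of the 8 genes other than HSPA1A and HSPA1B was also -0.31, where the median of all genes was 0.00.

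**Figure D1:**
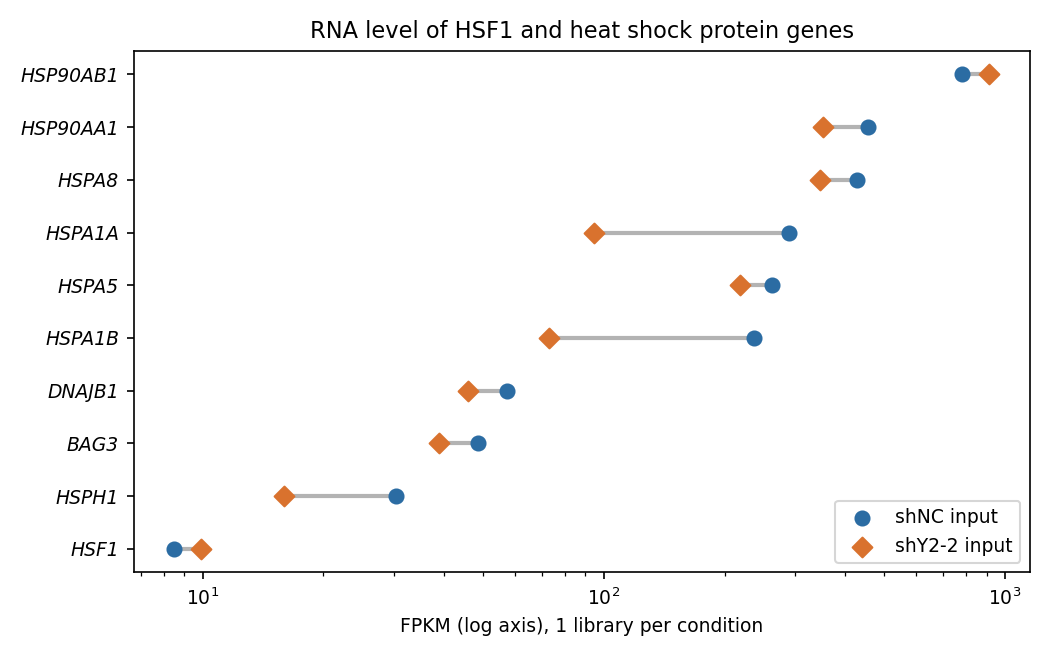
RNA level (FPKM, log axis) of HSF1 and the 9 heat shock protein genes in the shNC input library (blue circles) and the shY2-2 input library (orange diamonds), 1 library each, ordered by the shNC level; a grey bar joins the values of a gene. The longest bars belong to HSPA1A (289 to 94.4) and HSPA1B (237 to 72.9).

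HSF1 itself (ENSG00000185122, GRCh38 chromosome 8, 144291591 to 144314722, + strand) was the least abundant gene of the set, at 8.50 FPKM in shNC and 9.90 in shY2-2. Its log2 ratio was 0.20, opposite in sign to most of the chaperone genes of the set. The related factors HSF2 (4.06 and 3.96 FPKM, log2 ratio -0.03) and HSF4 (1.28 and 1.08 FPKM, -0.14) were lower still in level, with ratios close to 0.

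HSPA1A (ENSG00000204389, chromosome 6, 31815464 to 31817946, + strand) and HSPA1B (ENSG00000204388, chromosome 6, 31827735 to 31830255, + strand) are neighbouring genes of a single exon each that encode the inducible HSP70. HSPA1A had 289 FPKM in shNC and 94.4 in shY2-2, 3.06-fold lower (log2 ratio -1.60). HSPA1B had 237 FPKM in shNC and 72.9 in shY2-2, 3.26-fold lower (log2 ratio -1.69). Counted from the lowest ratio, HSPA1B was number 30 and HSPA1A number 37 of the 12268 genes.

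These positions can be read against genes of like level and structure. Among the 632 genes with an shNC level of at least 50 FPKM, where a small number of fragments weighs least, 3.64% had a log2 ratio below -1, and among the 231 coding genes of 1 exon 2.6% did. Both HSP70 genes stayed among the most abundant messages, at percentile 99.3 (HSPA1A) and 99.1 (HSPA1B) of the shNC levels and at 97.1 and 96.2 of the shY2-2 levels. The 2 genes moved by nearly the same factor, with a ratio of HSPA1A to HSPA1B of 1.22 in shNC and 1.30 in shY2-2.

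The separate values of the pair are uncertain because the genes share most of their sequence. Their coding sequences of 1926 nt each differ at 4 positions (99.8% identity), and an identical run of 1715 nt reaches from 6 nt before the start codon to 1708 nt after it. Of all 150-nt windows of the HSPA1A transcript, 69.6% occur also in another gene, and of those of HSPA1B 70.1%. How the authors' counting divided such fragments is not given in the sources used here. A long noncoding RNA gene that overlaps HSPA1B (ENSG00000285565) holds part of these windows too. The sum of the pair, which depends less on the division between them than the separate values do, was 526 FPKM in shNC and 167 in shY2-2, 3.15-fold lower (log2 ratio -1.65).

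HSPA8 (ENSG00000109971, chromosome 11, 123057489 to 123063230, − strand) encodes the constitutive cytosolic HSP70, HSC70. It had 429 FPKM in shNC and 347 in shY2-2, a log2 ratio of -0.30. The constitutive form therefore exceeded the inducible pair in the knockdown library but not in the control: the ratio of HSPA8 to the sum of HSPA1A and HSPA1B was 0.815 in shNC and 2.07 in shY2-2. HSPA5 (ENSG00000044574, chromosome 9, 125234853 to 125241330, − strand), the HSP70 of the endoplasmic reticulum (BiP), had 263 FPKM in shNC and 218 in shY2-2, a log2 ratio of -0.27.

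HSP90AB1 (ENSG00000096384, chromosome 6, 44246166 to 44253888, + strand), the constitutive cytosolic HSP90, was the most abundant gene of the set, with 781 FPKM in shNC and 913 in shY2-2 (log2 ratio 0.23). HSP90AA1 (ENSG00000080824, chromosome 14, 102080738 to 102139699, − strand), the more stress-inducible HSP90, had 455 FPKM in shNC and 352 in shY2-2 (log2 ratio -0.37). The paralogs thus differed in opposite directions, and the ratio of HSP90AB1 to HSP90AA1 was 1.72 in shNC and 2.60 in shY2-2. Their sum was close to level, at 1236 and 1265 FPKM.

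Among the co-chaperones, HSPH1 (ENSG00000120694, chromosome 13, 31134974 to 31162388, − strand), an HSP110 that exchanges nucleotide on HSP70, had 30.4 FPKM in shNC and 16.0 in shY2-2 (log2 ratio -0.89, number 381 from the lowest of 12268). DNAJB1 (ENSG00000132002, chromosome 19, 14514770 to 14529770, − strand), the J protein HSP40, had 57.3 FPKM in shNC and 45.9 in shY2-2 (log2 ratio -0.31). BAG3 (ENSG00000151929, chromosome 10, 119651370 to 119677819, + strand), which links HSP70 to selective autophagy, had 48.5 FPKM in shNC and 38.9 in shY2-2 (log2 ratio -0.31). HSPH1 stood below the others of this group, and DNAJB1 and BAG3 had ratios near those of HSPA8 and HSPA5.

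The make-up of the set shifted with the inducible pair. The 10 genes summed to 2598 FPKM in shNC and 2108 in shY2-2. HSPA1A and HSPA1B gave 20.3% of that sum in shNC and 7.94% in shY2-2, and the HSP90 pair 47.6% and 60.0%. The 8 genes other than HSPA1A and HSPA1B summed to 2072 and 1941 FPKM.

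Chaperone genes outside the set passed the same limits about as often as all genes. Of 83 genes in 8 lists of chaperone families, co-chaperones and heat shock factors, 76 passed the filter, 0 had a log2 ratio above 1 and 2 had a ratio below -1, where 0.986% and 2.14% of all genes did. Both were J proteins: DNAJC7 (12.6 FPKM in shNC and 5.09 in shY2-2, -1.16) and DNAJB4 (6.14 and 2.41 FPKM, -1.06), an HSP40 related to DNAJB1. In sign, 43 of the 76 ratios were below 0 and 33 above, with a median of -0.04, where 49.7% of all genes were below 0 and the median of all genes was 0.00.

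By list, the 13 other J proteins of cytosol and nucleus had a median log2 ratio of -0.40, up to 0.45 for DNAJC8 (37.2 and 51.1 FPKM). The 10 other HSP70 and HSP110 genes had a median of -0.22, from HSPA4L, an HSP110 (3.45 and 1.90 FPKM, -0.62), to HSPA13 (11.4 and 14.6 FPKM, 0.34). Of the small heat shock proteins 3 passed, and HSPB1 (HSP27), by far the most abundant, had 226 FPKM in shNC and 166 in shY2-2 (-0.44), between HSPB8 (3.27 and 1.50 FPKM, -0.77) and HSPB11 (5.59 and 6.19 FPKM, 0.12).

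The 13 other HSP90 genes and HSP90 co-chaperones had a median of 0.09, with 7 above 0 and 6 below, from HSP90B1 of the endoplasmic reticulum (154 and 104 FPKM, -0.56) to the kinase co-chaperone CDC37 (25.5 and 39.8 FPKM, 0.62). The 10 chaperonin genes, most of them subunits of the TRiC complex that folds actin and tubulin, had a median of 0.08, with 8 above 0 and 2 below, from TCP1 (23.0 and 19.7 FPKM, -0.21) to CCT3 (108 and 143 FPKM, 0.39). The 9 other exchange factors and regulators of HSP70 had a median of -0.04, from BAG5 (9.51 and 7.49 FPKM, -0.31) to GRPEL1 (6.01 and 8.75 FPKM, 0.48). Of the 18 genes of endoplasmic reticulum chaperones and the unfolded protein response 13 had ratios below 0, with a median of -0.13, from HERPUD1 (4.81 and 2.48 FPKM, -0.74) to SDF2L1 (10.4 and 14.3 FPKM, 0.42).

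**Figure D2:**
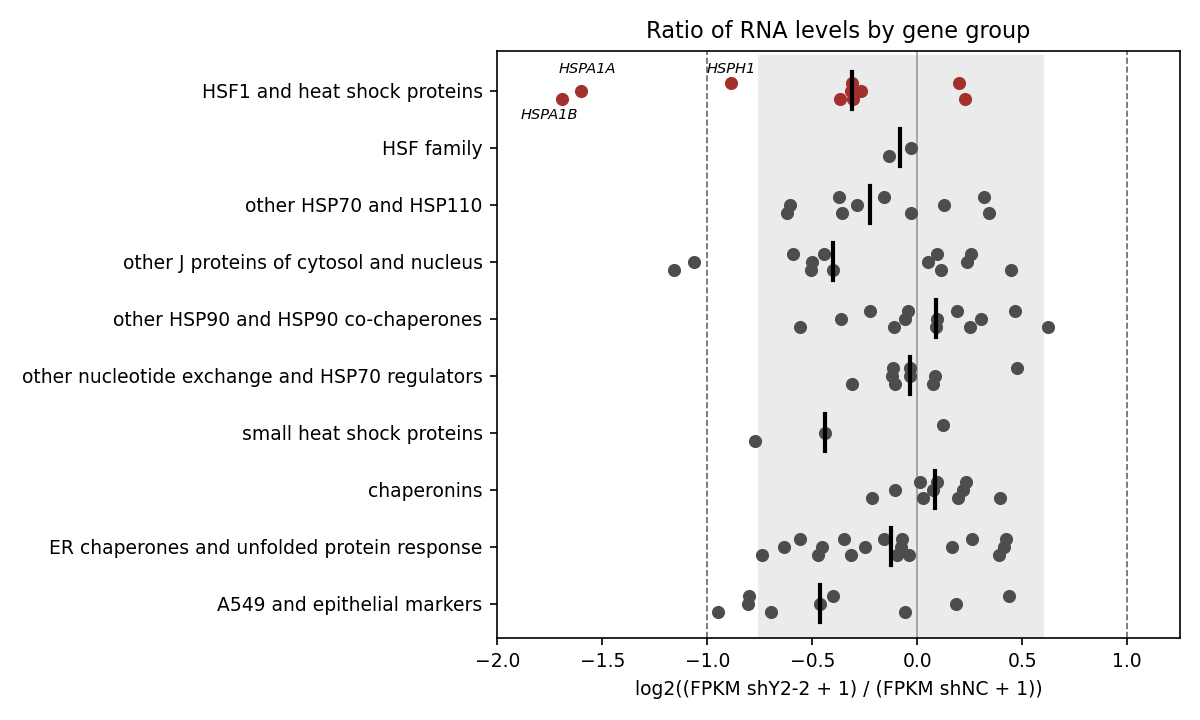
Log2 ratio of FPKM in shY2-2 over shNC (pseudocount 1) for HSF1 and the heat shock protein genes (red) and for the lists of related genes and A549 markers (grey), 1 point per gene that passed the FPKM filter. Black bars are medians, dashed lines mark ratios of -1 and 1, and the shaded band runs from percentile 5 to 95 of all 12268 genes (-0.76 to 0.60); HSPA1A and HSPA1B lie farthest to the left, and DNAJC7 and DNAJB4 are the other points past -1.

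The heat shock element was looked for in the promoter windows of RefSeq on GRCh38.p14, each from 250 bases before to 50 bases after an annotated gene start. A gene can have several such starts, and distances below are to the start of the window that held the element. For HSPA8, HSP90AA1 and HSP90AB1 that start, and the elements before it, lie inside the wider gene bounds given above. Of the 10 genes, 9 had a window in that table, and HSF1 did not. The pattern GAANNTTCNNGAA or its reverse complement TTCNNGAANNTTC, 3 perfect units in a row, was found in the windows of 166 of 27305 gene symbols (0.608%), and in those of HSPA8, HSP90AA1 and HSP90AB1. The sequences are shown because this is the pattern that HSF1 recognises, each on the strand of the gene with the units in capitals. They lie at chr11:123062354-123062366 and chr11:123062179-123062191, 230 and 55 bases before the start of HSPA8, at chr14:102087120-102087132, 88 bases before the start of HSP90AA1, and at chr6:44247778-44247790 and chr6:44247831-44247843, 165 and 112 bases before the start of HSP90AB1.
HSPA8, distal: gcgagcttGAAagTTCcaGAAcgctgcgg
HSPA8, proximal: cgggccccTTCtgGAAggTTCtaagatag
HSP90AA1: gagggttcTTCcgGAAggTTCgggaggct
HSP90AB1, distal: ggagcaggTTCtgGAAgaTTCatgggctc
HSP90AB1, proximal: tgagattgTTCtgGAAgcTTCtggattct

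The perfect pattern was not found in the windows of HSPA1A, HSPA1B, HSPA5, HSPH1, DNAJB1 and BAG3, which says only that these letters are not there. The 3 genes that hold it had log2 ratios of -0.30 (HSPA8), -0.37 (HSP90AA1) and 0.23 (HSP90AB1). All 45 genes with the pattern that passed the FPKM filter had a median log2 ratio of -0.12, with 66.7% below 0 and 2.22% below -1, where 49.7% and 2.14% of all genes were.

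The m6A peaks were called by the authors as IP over input within each condition, so that a peak's fold enrichment is already relative to the RNA level of its region. The deposited p-values are below 0.05 without adjustment, and many peaks have a larger FDR. Every gene of the set other than HSF1 had at least 1 named peak in shNC, 9 of 10, where 88.1% of coding genes that passed the FPKM filter had one. In shY2-2 it was 10 of 10, where 85% had one. Fold enrichment of the named peaks ran from 1.09 to 6.10 in shNC, with a median of 1.67, and from 1.09 to 8.09 in shY2-2, with a median of 1.65.

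**Figure D3:**
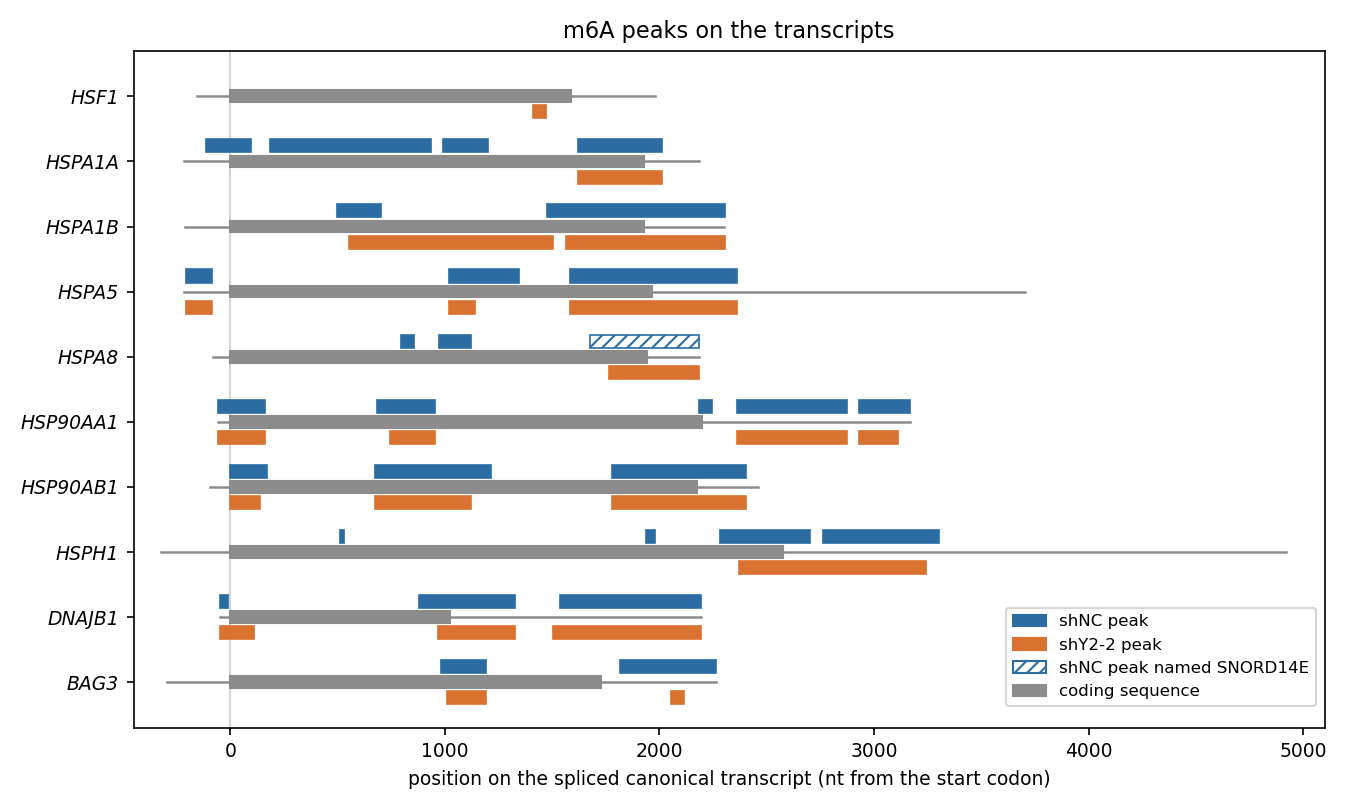
Peaks on the spliced canonical transcript of each gene, in nt from the start codon, with the shNC list in blue above the line and the shY2-2 list in orange below it; thick grey bars are coding sequence and thin lines UTRs. Most genes have a peak at the stop codon or in the 3′ UTR in both lists, and 5 genes have a peak near the start codon in shNC; peaks off the canonical transcript are not drawn.

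Start codon and 5′ UTR peaks were present on the HSP90 genes, DNAJB1, HSPA5 and HSPA1A, most of them with low enrichment. A peak that came within 100 nt of the start codon on the canonical transcript was found for 5 of the 10 genes in shNC and for 4 in shY2-2, where 25% and 21.2% of coding genes had one. Among coding genes with at least 5 FPKM in a library these shares were 31.5% and 27.3%. No window peak of the set reached a fold enrichment of 2 in either list. By fold enrichment these peaks stood between percentile 0.2 and 26.2 of the shNC list, and between 0.161 and 17.0 of the shY2-2 list. Low values were not particular to them, since 1.66, near the median of the named shNC peaks, stood at percentile 25.2. Median fold enrichment was 1.42 at the start codon and 1.93 on the 3′ UTR in shNC, and 1.405 and 2.04 in shY2-2.

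The peak of HSP90AA1 at the start codon, from 59 nt before to 161 nt after it, had the same position in both lists, with a fold enrichment of 1.50 in shNC (FDR 3.16e-18) and 1.51 in shY2-2 (FDR 1.10e-07). Of its 300 nt, 221 lie on the canonical transcript. The peak of HSP90AB1 covered the first 171 nt of the coding sequence in shNC and the first 141 nt in shY2-2, with a fold enrichment of 1.42 (FDR 3.98e-21) and 1.47 (FDR 1.58e-14). These are the parts on the canonical transcript, of 299 nt in shNC and 209 nt in shY2-2. These 2 peaks had the smallest FDR of the start codon peaks of the set in both lists, though in shNC the DNAJB1 peak had a higher fold enrichment. They lie on the 2 most abundant genes of the set, and the part of the RNA level in their FDR was not tested.

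On the canonical transcript, the peak of DNAJB1 reached from 48 to 11 nt before the start codon in shNC, and from 48 nt before to 109 nt after it in shY2-2. It has only 38 of its 120 nt on that transcript in shNC, and 158 of 210 nt in shY2-2. Its fold enrichment was 1.68 in shNC and 1.34 in shY2-2, with an FDR of 0.148 and 0.0269. HSPA5 had a peak of 120 nt in its 5′ UTR at the same position in both lists, 204 to 85 nt before the start codon, with a fold enrichment of 1.10 and 1.09 and an FDR of 0.0575 and 0.111. HSPA1A had a start codon peak in shNC only, from 114 nt before to 96 nt after the start codon (fold enrichment 1.26, FDR 3.55e-06).

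The 5′ UTR peak of HSPA1A thus stood in the list of the library with the higher HSPA1A level. Of its 4 peaks in shNC, 1 was called in shY2-2, and the 2 shNC peaks in the coding sequence (fold enrichment 2.44 and 1.66) lie wholly in sequence shared with other genes, as does 48.8% of the start codon peak. The lower RNA level of the gene in shY2-2 moves with the loss of the peak, and its part in it was not tested.

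The core of the m6A consensus, GGAC, was counted in the start codon windows of the canonical transcripts. It occurred in the windows of 8 of the 10 genes, all but HSP90AA1 and BAG3, and in 65.0% of 11997 coding transcripts with a full window of 201 nt. The windows of HSPA8 (179 nt), HSP90AA1 (160 nt), HSP90AB1 (196 nt) and DNAJB1 (149 nt) were shorter than that. Inside the parts of start codon peaks that lie on the canonical transcript there were 5 GGAC sites, 3 of DNAJB1 and 1 each of HSPA1A and HSP90AB1. The 5′ UTR sites among them are shown with the core in capitals, on the strand of the mRNA. The DNAJB1 site lay in the peaks of both lists, with its A 37 nt before the start codon (chromosome 19, position 14518386), and the HSPA1A site lay in the peak of shNC, with its A 81 nt before the start codon (chromosome 6, position 31815676). The HSPA1A site was added after its values were seen. The others lie in the coding sequence, at 49 and 100 nt after the start codon of DNAJB1 in the peak of shY2-2 and at 154 nt after that of HSP90AB1 in the peak of shNC.
DNAJB1: ggagccgggGGACggcgacagcgggt
HSPA1A: ccggcgtccggaaGGACcgagctcttctcg

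The start codon peak of HSP90AA1 holds no GGAC, although it was called with the same bounds in both lists. The 5′ UTR peak of HSPA5 holds none either, while the rest of its window holds 3. A GGAC in a peak is a match of letters and not a measured m6A site, since the peaks are far wider than the motif.

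The location deposited with each peak gave a wider count of 5′ UTR peaks than the canonical transcripts did. By that annotation 6 genes had a 5′ UTR peak in shNC (7 peaks) and 5 in shY2-2 (6 peaks), where 30.5% and 26.9% of coding genes had one. Of these peaks, 4 of 7 and 3 of 6 lay on the canonical 5′ UTR, against 57.7% and 59.3% of all 5′ UTR peaks in the lists, and 5 of 7 and 4 of 6 met the start codon window, against 58.3% and 58.4%. The others fell outside. An HSPA8 peak of shNC labelled 5′ UTR lies 975 to 1119 nt into the coding sequence, and another lies 475 nt before the canonical transcript, with a fold enrichment of 6.10 and an FDR of 0.0813.

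Other peaks also lay off the canonical transcript or away from their label. A DNAJB1 peak of shY2-2 lies 9058 nt before the canonical transcript and had the highest fold enrichment of the set, 8.09, with an FDR of 0.603. An HSF1 peak of shY2-2 labelled 5′ UTR lies in an intron of the canonical transcript (fold enrichment 2.04, FDR 0.139). The other HSF1 peak, labelled 3′ UTR, lies in the coding sequence (fold enrichment 1.32, FDR 0.251). HSF1 thus had no peak in shNC and 2 peaks in shY2-2, both with an FDR above 0.05. HSPH1 had an shNC peak 95 nt before the canonical transcript, labelled exon, with a fold enrichment of 3.43 and, unlike the DNAJB1 and HSF1 peaks, an FDR below 0.05 (0.00692).

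Most genes of the set had a peak at the stop codon or in the 3′ UTR. By name, 8 genes in shNC and 9 in shY2-2 had a peak on the canonical 3′ UTR, where 73.6% and 69.6% of coding genes had one. HSPA5 had a peak of 777 nt over the stop codon at the same position in both lists, with a fold enrichment of 3.13 in shNC and 3.85 in shY2-2. DNAJB1 had its strongest paired peak at the 3′ end of its 3′ UTR, with a fold enrichment of 4.36 and 4.12. HSP90AA1 had one in the 3′ UTR (2.15 and 2.04), HSP90AB1 one over the stop codon (1.74 and 1.65), and BAG3 a 3′ UTR peak of 449 nt in shNC and 61 nt in shY2-2 (1.70 and 1.28). The BAG3 peak of shY2-2, counted among the 9 genes, had an FDR of 0.311. In the coding sequence, HSP90AA1 had a peak with a smaller p-value in shNC than that of its 3′ UTR (log10 p -267 against -137) and a fold enrichment of 1.47 in shNC and 1.32 in shY2-2. HSP90AB1 also had a coding peak (1.40 and 1.25, log10 p -130 and -88.0). HSPH1 had a pair of 3′ peaks in shNC (2.12 and 1.75) that met a single one in shY2-2 (1.99).

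HSPA8 shows how a gene name can hide a peak. Under the name HSPA8, shNC had no 3′ peak and shY2-2 had 1 of 420 nt over the stop codon, with a fold enrichment of 2.39 (log10 p -567). At the same end of the gene, shNC had a peak of 510 nt with a fold enrichment of 2.45 (log10 p -643, number 36 of that list by p) that carries the name SNORD14E, a small nucleolar RNA in an intron of HSPA8 with an FPKM of 0.573 in shNC and 1.47 in shY2-2. Read by name, HSPA8 gained a stop codon peak in the knockdown. Read by position, it had one in both lists with nearly the same enrichment. Of the 17354 shNC peaks that met a peak of shY2-2, 180 (1.04%) met only peaks of other gene names.

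The sequence GGACT, the most common form of the m6A consensus, was looked for in the part of these stop codon and 3′ UTR peaks that both lists share. It was found in 5 of the 9 genes searched, HSF1 left out: HSPA1A, HSPA1B, HSPA5, HSPH1 and DNAJB1. The stretches searched ran from 61 nt (BAG3) to 1017 nt (DNAJB1). No share over all genes was computed for such stretches, so this count has nothing to be read against. A stop codon window of 201 nt held it in 4 of the 10 genes, HSPA1B, HSPA5, HSPH1 and DNAJB1, against 22.0% of 18480 coding transcripts. The site nearest to the end of the stop codon in each gene is shown, with the motif in capitals, to show what these peaks contain. The set of sites was chosen after the peaks were seen. The A lies 39 nt after the stop codon in HSPA5 (chromosome 9, position 125236553) and 20 nt after it in DNAJB1 (chromosome 19, position 14515920). It lies 38 nt after the stop codon in HSPA1B (chromosome 6, position 31829914), in a cluster of 3 copies, and in HSPH1 4 nt before the last base of the stop codon (chromosome 13, position 31137322).
HSPA5: attgtaaatactGGACTcaggaacttttgt
DNAJB1: tgagctccccaaGGACTgaccagggacctt
HSPA1B: tgtctttgaggtGGACTgttgggactcaag
HSPH1: taatatggacttGGACTagataaccttaaa

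Peaks of the set were found again in the other list at least as often as peaks in general. Of the 30 named shNC peaks, 20 (66.7%) met a shY2-2 peak by at least 1 base of exon on the same strand, where 55.9% of all shNC peaks did. Of the 23 named shY2-2 peaks, 20 (87.0%) met a shNC peak, where 65.4% of all did. Where 1 peak met exactly 1 peak, 17 pairs lay on these genes. Fold enrichment was higher in shY2-2 in 6 of them and lower in 11, with a median log2 ratio of -0.04. None of the 17 changed by more than 2-fold, while 5.44% of all 12294 pairs were more than 2-fold lower and 4.41% more than 2-fold higher, with a median of -0.06.

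**Figure D4:**
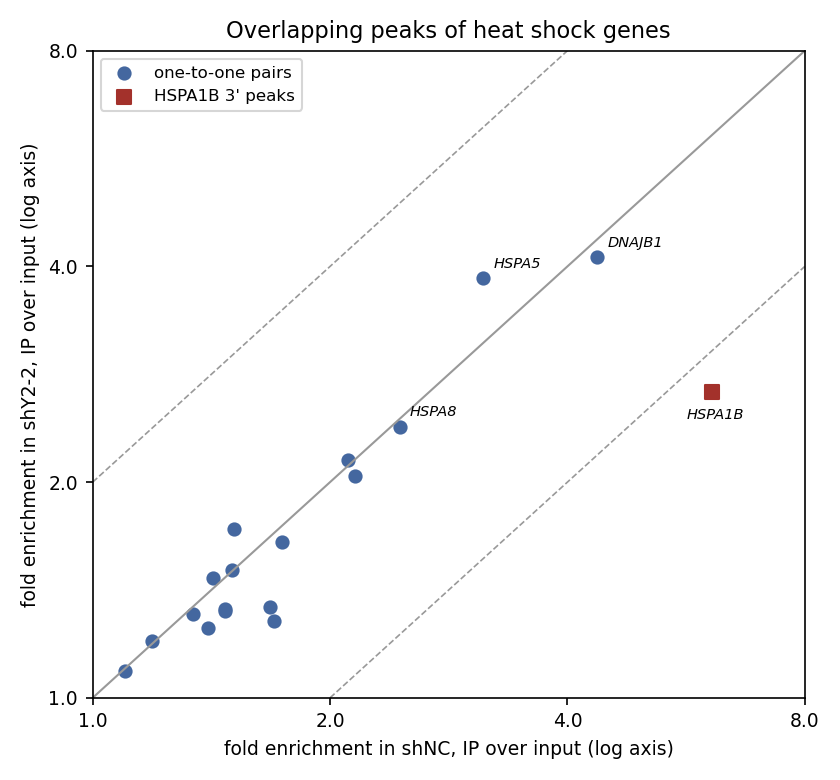
Fold enrichment (IP over input) in shNC and in shY2-2 of the 17 one-to-one peak pairs on the genes of the set (blue) and of the 3′ peaks of HSPA1B (red square), both axes logarithmic. The solid line marks equal values and the dashed lines 2-fold differences; all pairs lie between the dashed lines, and the HSPA1B peaks (6.10 and 2.67) lie below them.

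The largest difference in enrichment between overlapping peaks of the set belonged to HSPA1B, whose peaks did not pair one to one. Its peak over the stop codon and 3′ UTR covered 831 nt in shNC, with a fold enrichment of 6.10, and 742 nt in shY2-2, with a fold enrichment of 2.67, which is 2.28-fold lower. The log10 p was -84.1 in shNC and -32.4 in shY2-2. Of the part on the canonical transcript, 39.8% in shNC and 32.5% in shY2-2 lies in windows found whole in other genes. Coding sequence, near identical to that of HSPA1A, makes up 452 of 830 nt in shNC and 363 of 741 nt in shY2-2. The rest, 378 nt in both lists, is 3′ UTR. In the coding sequence the order was the other way around, with a fold enrichment of 4.58 (208 nt, FDR 0.00708) in shNC and 6.94 (950 nt, FDR 0.199) in shY2-2, both wholly in shared sequence.

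HSPA1A, with nearly the same ratio of RNA levels, had no such difference at its 3′ end. Its stop codon peak had the same bounds in both lists, with a fold enrichment of 1.47 in shNC and 1.33 in shY2-2. Of its 390 nt, 22.6% lies in windows found whole in another gene. However, 305 nt are coding sequence, near identical to that of HSPA1B, and only 85 nt are 3′ UTR. How far fragments of one gene entered the enrichment of the other was not tested. The log10 p went from -48.1 in shNC to -10.7 in shY2-2. The lower RNA level of both genes in shY2-2 moves with these values, and its part in them was not tested.

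**Figure D5:**
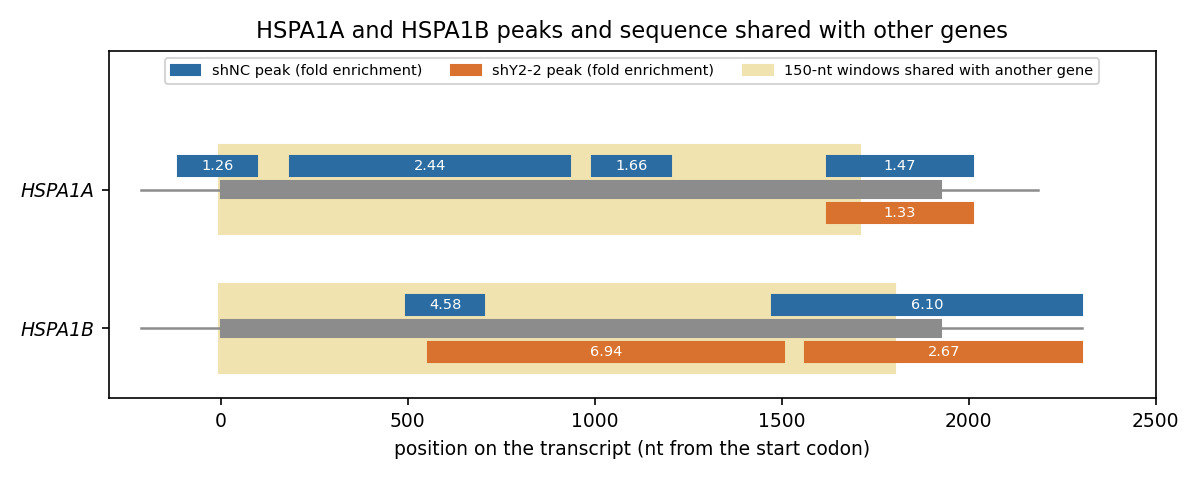
Peaks of HSPA1A and HSPA1B along the transcripts in nt from the start codon, shNC in blue and shY2-2 in orange, with the fold enrichment printed in each peak; the grey bar is the coding sequence and the pale band the stretch whose 150-nt windows occur in another gene. The coding peaks lie inside the shared stretch, and most of each 3′ peak lies outside it. The coding sequences of the 2 genes differ at 4 positions in all, so coding sequence outside the band is near identical too.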

How the data were processed

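RNA-seq and m6A-seq libraries of A549 cells were compared between shNC and shY2-2, grouped by the labels. Reads had been aligned to GRCh38 with HISAT2, and StringTie gave the authors' FPKM per gene from the input libraries. The submitters' processing notes also name fastp, HOMER and ChIPseeker, and versions are not given in the sources used here. Peaks are those that the authors called with exomePeak. For each peak the deposited p-value and FDR, their deposited log10 scores and the deposited fold enrichment (ratio of IP to input) were taken over. FPKM holds no counts, so no count test was run, the depth per sample is unknown and no interval can be given.

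Ratios used a pseudocount of 1 and a filter of 1 FPKM in either library. Distinct peaks were taken by the deposited gene name and placed on the canonical transcripts of GENCODE (release 44, GRCh38), and a peak counted for a start or stop codon when it came within 100 nt of it. That release may differ from the authors' annotation. Shared sequence was any 150-nt window found in a transcript of another gene. Named are all 10 genes, the extremes of each related list, genes of those lists past a log2 ratio of 1 in size, and YTHDF2. The genes, lists and rules were chosen with earlier results of these data known. Alternatives were another pseudocount, other FPKM filters, centring, stricter peak filters, and other overlap and location rules. On simulated data the ratio limit, the overlap of peaks and the placing of positions on transcripts gave the planted answers. The planted changes were well past the limit and the noise was small, so this checks only that these steps run correctly. The motif, shared sequence and promoter searches were not part of it. The software was Python 3.11.15, matplotlib 3.10.9, NumPy 2.4.6, pysam 0.24.0, pandas 2.3.3 and SciPy 1.17.1. Quantitative PCR and western blots were not analysed here.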

Additional observations from a re-analysis of the deposited data

How the results depend on the processing

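With 1 library of each kind per condition, no replicate could be left out and no call has a replicate check. No paired analysis was possible because the labels give 1 library per kind and condition and no replicate numbers. Of 96 recomputed values, 82 stayed within the limits set for the same result, among them all 40 log2 ratios of single genes of the set. Most of these 40 could hardly move. A change of FPKM filter cannot alter the ratio of a gene, and centring shifted every ratio by only 0.01. For counts the limits were wide. With the start codon of any coding transcript, 7 genes in place of 5 had a start codon peak in shNC, and 4 in shY2-2 as before. That counted as the same result, as did 21 named shNC peaks in place of 30 at an FDR of at most 0.001. With a pseudocount of 0.1 the related genes past a log2 ratio of 1 in size were 4 in place of 2. Over all genes this setting gave 602 ratios below -1 (4.91%) in place of 262, and 315 above 1 in place of 121. The peak counts depended on the filter. At an FDR of at most 0.05, 3 genes kept a start codon peak in shNC and 3 a 5′ UTR peak by the deposited annotation in shY2-2. At an FDR of at most 0.001, start codon peaks were left on 3 genes in shNC and 2 in shY2-2, and 5′ UTR peaks on 2 genes in shY2-2. At a fold enrichment of at least 2, 10 peaks were left in shNC and 9 in shY2-2, of which 6 and 7 met a peak of the other list. With that filter 0 genes had a start codon peak in shNC and 0 in shY2-2, and 1 and 2 had a 5′ UTR peak by the deposited annotation. No shares over all coding genes or peaks were computed under these peak filters. The filtered counts therefore have nothing to be read against, and the shares given further up are unfiltered. Taking peaks by position in place of gene name, an alternative chosen after seeing the data, added the SNORD14E peak to HSPA8 (31 in place of 30 in shNC) and moved no other count by more than 1. FPKM and peaks without read counts limit what can be said of precision.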
